A study of Homo sapiens with 6 samples.

Results

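The genes described here are 10 nuclear genes that build mitochondria and keep the mitochondrial genome running: PPARGC1A, PPARGC1B, PPRC1, NRF1, GABPA, TFAM, TFB2M, POLRMT, TWNK and POLG. They were taken by name from a count table of 48183 gene names, each name had 1 Ensembl identifier, and all 10 passed the filter on low counts that left 26497 names for testing. The study asked how human pluripotent stem cells go from the primed state, which resembles the epiblast after implantation, to the naive state, which resembles the epiblast before it, and it measured mitochondrial activity as one property of the naive state.

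All 6 libraries came from 1 human embryonic stem cell line, which the labels call H1 and the study's text H9. All cells carried the EOS reporter, a GFP and puromycin cassette that the study used as a marker of the naive state. The 4 naive libraries were made by different routes. AICAR 1 and AICAR 2 were EOS cells converted with AICAR, an activator of AMPK, in PXGL medium (a mix of MEK, tankyrase and PKC inhibitors with LIF). VPA was EOS cells converted with valproic acid, a histone deacetylase inhibitor, beside a MEK inhibitor and LIF. CA-p38 was a line that also carried a doxycycline-driven, constitutively active p38 kinase with an mCherry marker. It was converted by doxycycline in PXGL. Naive cells were then expanded in PXGL over many passages. The labels place them on mouse feeder cells, though the study's text also describes feeder-free culture. The study describes this expansion as free of AICAR and doxycycline, and it lists the AICAR libraries at neighbouring passages. Naive cells were sorted for CD75 and SUSD2, which mark naive cells, before lysis. The 2 primed libraries, primed EOS and primed CA-p38, were the parental lines, grown without feeders in StemFit AK02N and lysed unsorted, so state, medium, feeders and sorting cannot be told apart. Nothing in the labels says that libraries came from separate cultures, so the p-values measure only the spread between these libraries.

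Total counts ran from 46823699 to 54277064 per library. All 8 naive markers were higher and all 7 primed markers lower in naive cells, with the naive markers summing to 5069 to 5992 CPM (a gene's reads relative to all reads counted in the library, with edgeR's TMM scaling) in naive and 8.51 to 12.3 in primed libraries. Of 7 fibroblast markers, 0 were higher and 4 lower in naive cells. Their summed level was 35.8 to 79.1 CPM in naive and 554 to 600 in primed libraries. The largest part of the primed sum was 1 gene, VIM (4.05 to 6.33 CPM in naive, 394 and 365 in primed libraries). The 3 genes not called, COL3A1, DCN and LUM, had positive log2 fold changes of 1.22, 0.87 and 2.15. The fibroblast sum therefore does not speak for each marker. Of 5 trophectoderm markers, 3 were higher and 1 lower, and their sum was 104 to 147 CPM in naive and 515 to 647 in primed libraries. The sum was set by the lower gene, KRT18 (91.1 to 136 CPM in naive, 511 and 642 in primed libraries), whereas CDX2, HAND1 and KRT7 were higher in naive cells. Of 5 neural markers, 1 was higher and 2 lower (sums of 243 to 288 and 547 to 645 CPM). Of all markers listed, those at 0 counts in at least 1 library were MAP2, LUM and PDGFRB in naive and KLF17, CDX2 and HAND1 in primed libraries. The part of other cells in the values below was not tested. In bulk RNA, fewer cells of a type and less RNA per cell cannot be told apart.

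A mitochondrion needs products of both genomes. In the nucleus, the coactivators of the PGC-1 family (PPARGC1A, PPARGC1B and PPRC1) bind transcription factors such as NRF1, the ETS factor GABPA and the estrogen-related receptors, which switch on nuclear genes for mitochondrial proteins. Among those genes are TFAM, TFB2M and POLRMT, which form the transcription machinery of mitochondrial DNA, and TFAM also packs that DNA into nucleoids. TWNK and POLG encode the helicase and the catalytic subunit of the polymerase that copy it.

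Between the states, the genes of this set did not move together. PPARGC1B rose 2.71-fold, PPARGC1A 1.89-fold and POLRMT 1.48-fold in naive cells, TFAM was 1.69-fold lower, and the other 6 genes did not pass the test. The count of 4 of 10 called, in edgeR's quasi-likelihood test at an adjusted p under 0.05, stands beside 53.1% of all 26497 names tested. The 3 higher genes stand beside 26% of all names and the 1 lower gene beside 27%. The median log2 fold change over the set was 0.03, beside 0.11 over all names tested, and the median absolute value was 0.30, beside 0.85. In 5 of the 10 genes the naive and primed libraries did not overlap, against 64.9% of all names. Scaling moved the median of all names from 0.11 to 0.20 with library totals and to 0.06 with DESeq2 size factors. The 4 called genes kept their direction and call under both.

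**Figure D1:**
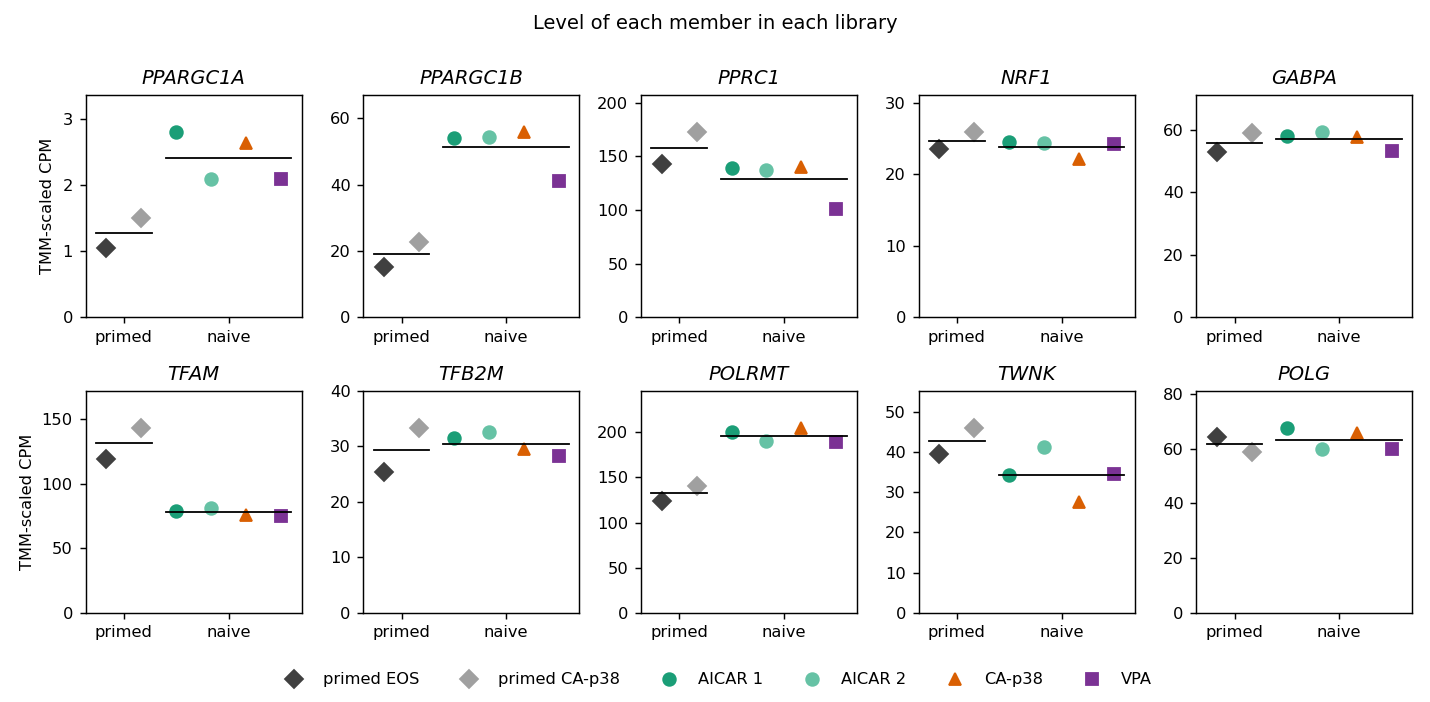
TMM-scaled CPM (vertical axis, from 0) of each of the 10 genes in the 2 primed and 4 naive libraries, with 1 symbol per library and a black line at the mean of each state. The groups are apart for PPARGC1A, PPARGC1B, PPRC1, TFAM and POLRMT and overlap for the other 5 genes.

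Among the coactivators, PPARGC1B had the highest log2 fold change of the 10 genes. Its level was 41.1 CPM in VPA, 55.9 in CA-p38, 54.2 in AICAR 1 and 54.3 in AICAR 2, against 15.2 and 22.6 in the primed EOS and CA-p38 libraries. Every naive library lay above both primed libraries, the AICAR libraries were nearly equal, and VPA was the lowest naive library. The log2 fold change was 1.44 ± 0.18 (SE, 4 naive and 2 primed libraries, edgeR adjusted p = 2.5e-05). Across all alternatives run it stayed between 1.17 and 1.76, always past the threshold.

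PPARGC1A, the family member known as an inducible regulator in muscle, liver and brown fat, had few counts. They were 109 in VPA, 133 in CA-p38, 152 in AICAR 1 and 104 in AICAR 2, against 52 and 73 in the primed EOS and CA-p38 libraries, or 2.08, 2.63, 2.80 and 2.09 CPM against 1.05 and 1.49. The groups did not overlap, but the 2 AICAR libraries differed 1.34-fold from each other, about as much as the 4 naive libraries did. The log2 fold change was 0.92 ± 0.33 (SE, edgeR adjusted p = 0.0315). The call was lost without naive CA-p38 (0.85, adjusted p = 0.0732), without AICAR 1 (0.82, 0.0725), without primed EOS (0.67, 0.221) and with no filter on low counts (0.89, 0.0638).

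PPRC1, the third member of the family, is known to respond to serum and growth signals. It measured 101 CPM in VPA, 140 in CA-p38, 139 in AICAR 1 and 137 in AICAR 2, and 143 and 173 in the primed EOS and CA-p38 libraries. Every naive library was below both primed ones, though 3 of the 4 lay within a few CPM of primed EOS and VPA stood well under them. The log2 fold change was -0.29 ± 0.14 (SE, edgeR adjusted p = 0.101, 95% interval -0.59 to 0.01), and it passed the threshold with no filter on low counts (-0.31, adjusted p = 0.0412).

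Per kilobase of the canonical transcript, the family kept 1 order in both states. PPRC1 had a mean level of 24.3 CPM per kb in naive and 29.6 in primed cells, PPARGC1B 4.86 and 1.79, and PPARGC1A 0.382 and 0.202. The ratio of PPARGC1B to PPRC1 counts within a library, which scaling cannot move, was 0.406 in VPA, 0.399 in CA-p38, 0.39 in AICAR 1 and 0.396 in AICAR 2, against 0.107 and 0.131 in the primed EOS and CA-p38 libraries. This ratio was chosen after the values had been seen. It was nearly the same in the 4 naive libraries, VPA included, in which both genes were lower than in the other naive libraries.

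The nuclear factors that the coactivators work with did not pass the test. NRF1, which binds GC-rich sites in promoters of respiratory chain and mitochondrial transcription genes, was at 24.3 CPM in VPA, 22.1 in CA-p38, 24.5 in AICAR 1 and 24.4 in AICAR 2, and at 23.5 and 25.9 in the primed EOS and CA-p38 libraries. GABPA, the DNA-binding subunit of nuclear respiratory factor 2, was at 53.1, 57.7, 57.9 and 59.2 CPM in the same naive libraries and at 52.7 and 58.9 in the primed ones. For both genes the naive values lay in or close to the span of the primed pair. The log2 fold change was -0.05 for NRF1 (95% interval -0.34 to 0.24, edgeR adjusted p = 0.762) and 0.03 for GABPA (-0.21 to 0.27, 0.835), and the sign of each turned with the scaling, to 0.05 for NRF1 with library totals and to -0.02 for GABPA with DESeq2 size factors. GABPA shares 692 exonic bases, 12.1% of its exons, with ATP5PF on the opposite strand, and ATP5PF was called higher in naive cells (0.79). Whether the counting used strand is not given in the sources used here.

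Genes of this set are textbook targets of both factors, so the promoters of the transcription machinery are shown beside the values. RefSeq promoter windows (GRCh38.p14, 250 bases before to 50 after a gene's start) held 8 of the 10 genes, in 9 windows, with no entry for NRF1 and TWNK. The letters GCGCANGCG, a form of the NRF1 site, were searched on both strands and occurred in the windows of POLRMT, TFAM and TFB2M, 3 of 9, against 7.52% of all 35116 windows. The letters CCGGAAGT, a form of the ETS site bound by GABPA, occurred in those of GABPA and POLRMT, 2 of 9, against 4.14%. These letters were settled after the windows of the set had been seen. Of shorter letters, TGCGCA was in 2 of 9 windows (8.24% of all) and CGGAAG in 3 of 9 (19.5%). CGGAAG lies within CCGGAAGT, but a match to GCGCANGCG need not hold TGCGCA, so the 2 NRF1 searches are of different patterns. The matches to GCGCANGCG and CCGGAAGT are shown in capitals, 5′ to 3′ on the gene's strand. Matches to the shorter letters alone, such as CGGAAG in TFB2M, stay in lower case. The first is TFB2M at chr1:246566262-246566381 (minus strand), the second POLRMT at chr19:633538-633657 (minus), the third TFAM at chr10:58385337-58385366 (plus) and the last GABPA at chr21:25734893-25734922 (plus). GENCODE starts TFAM at 58385345 and GABPA at 25734570, upstream of these matches. By that annotation both matches lie inside the gene, so only 30 bases are printed for each. In POLRMT, 3 NRF1 matches overlap in 1 run near the start and 1 ETS match lies further upstream.
TFB2M: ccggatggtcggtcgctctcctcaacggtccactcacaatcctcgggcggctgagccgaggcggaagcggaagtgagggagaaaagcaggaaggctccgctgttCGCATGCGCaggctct
POLRMT: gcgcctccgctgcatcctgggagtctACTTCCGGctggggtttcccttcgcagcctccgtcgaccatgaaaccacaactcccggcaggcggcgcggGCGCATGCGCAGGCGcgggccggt
TFAM: acgctctcccgCGCCTGCGCcaattccgcc
GABPA: cacctccgctctACTTCCGGccctggctcc

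Of the 3 genes whose windows held the NRF1 letters, 1 was called higher, 1 lower and 1 was not called. POLRMT, the RNA polymerase of mitochondria, was at 189 CPM in VPA, 205 in CA-p38, 200 in AICAR 1 and 190 in AICAR 2, against 124 and 140 in the primed EOS and CA-p38 libraries. All naive libraries were above both primed ones, and they differed by no more than 1.09-fold from each other. This was a log2 fold change of 0.57 ± 0.10 (SE, edgeR adjusted p = 0.000386), and 0.47 to 0.67 over all alternatives.

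TFAM, the packaging protein and activator of mitochondrial DNA, was lower in naive cells. It was at 75.0 CPM in VPA, 76.1 in CA-p38, 78.9 in AICAR 1 and 81.2 in AICAR 2, against 119 and 143 in the primed EOS and CA-p38 libraries. The naive libraries were tightly grouped and all below the primed pair. The difference was -0.76 ± 0.11 on the log2 scale (SE, edgeR adjusted p = 5.43e-05), and -0.89 to -0.61 over all alternatives. TFB2M, which opens the DNA at mitochondrial promoters together with the polymerase, was at 28.2, 29.4, 31.6 and 32.5 CPM in VPA, CA-p38, AICAR 1 and AICAR 2 and at 25.3 and 33.4 CPM in primed EOS and primed CA-p38. All 4 naive values fell between the primed values, and the log2 fold change of 0.05 (95% interval -0.26 to 0.36, edgeR adjusted p = 0.779) had no stable sign.

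The ratio of TFAM to POLRMT counts put both changes in 1 number per library. It was 0.397 in VPA, 0.371 in CA-p38, 0.394 in AICAR 1 and 0.427 in AICAR 2, against 0.959 and 1.02 in the primed EOS and CA-p38 libraries, a value chosen after the data had been seen. Per kilobase, POLRMT was the highest gene of the set in both states, at 52.0 CPM per kb in naive and 35.1 in primed cells. TFAM was at 15.5 and 26.1, TFB2M at 17.1 and 16.5.

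**Figure D2:**
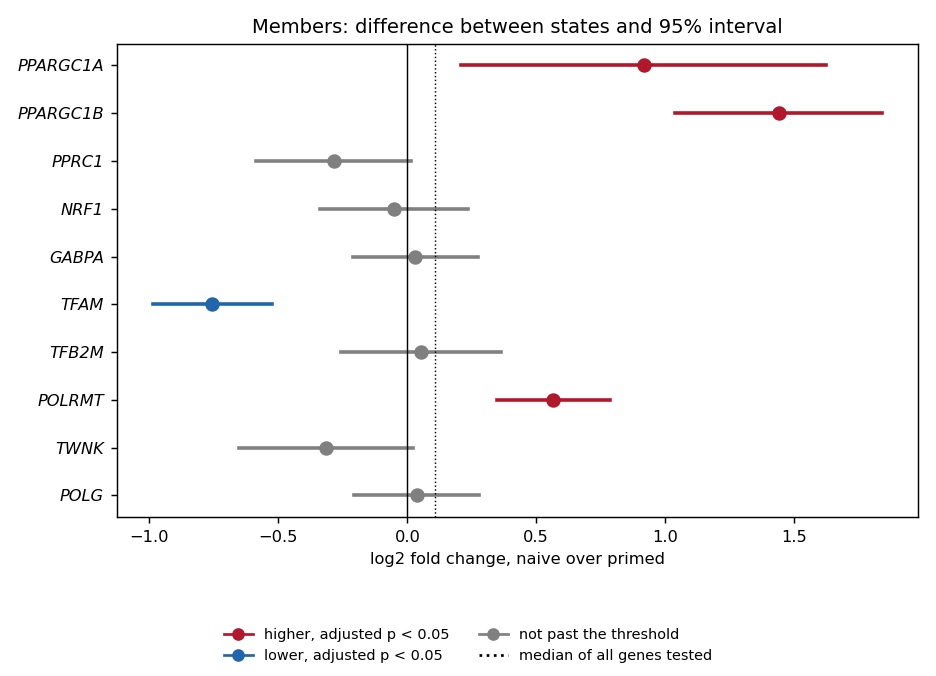
Log2 fold change of each gene, naive over primed (horizontal axis), with its 95% interval from the edgeR fit over 6 libraries. Red marks genes called higher, blue lower and grey those not past the threshold, and the dotted line is the median of all names tested at 0.11. Only the intervals of PPARGC1A, PPARGC1B, POLRMT and TFAM leave 0 out.

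The replication pair did not pass the test. TWNK, the helicase, was at 34.4 CPM in VPA, 27.5 in CA-p38, 34.4 in AICAR 1 and 41.1 in AICAR 2, and at 39.5 and 46.0 in the primed EOS and CA-p38 libraries. It was the most variable gene of the set among naive libraries, with a 1.49-fold range and a naive value, AICAR 2, above primed EOS. On the log2 scale the difference was -0.32 ± 0.15 (SE, edgeR adjusted p = 0.105), and without AICAR 2 it was -0.41 and past the threshold (adjusted p = 0.0366).

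POLG, the catalytic subunit of the DNA polymerase, was at 59.7 CPM in VPA, 65.9 in CA-p38, 67.7 in AICAR 1 and 59.7 in AICAR 2, and at 64.3 and 58.9 in the primed EOS and CA-p38 libraries. The groups overlapped on both sides, and the log2 fold change was 0.04 (95% interval -0.21 to 0.28, edgeR adjusted p = 0.799). Its exons overlap those of FANCI on the opposite strand by 458 bases and those of POLGARF on the same strand by 783 bases. FANCI was called lower in naive cells (-0.92). Per kilobase, POLG was at 14.2 CPM per kb in naive and 13.8 in primed cells, TWNK at 9.50 and 11.8, GABPA at 10.9 and 10.7 and NRF1 at 6.78 and 7.03.

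Each naive library was also set against its own parental primed library, with 1 library on each side and therefore no test. VPA and both AICAR libraries share primed EOS as the parent. All 4 ratios were positive for PPARGC1A, PPARGC1B and POLRMT and negative for PPRC1 and TFAM, and the other genes had mixed signs. How often all 4 ratios share a sign over all names was not computed. The log2 ratio of PPARGC1B was 1.40 in VPA, 1.28 in CA-p38, 1.80 in AICAR 1 and 1.80 in AICAR 2. That of TFAM was -0.67, -0.91, -0.59 and -0.55 in the same order, with CA-p38 the farthest from its parent. TWNK had a wide range, from -0.73 in CA-p38 to 0.06 in AICAR 2. PPRC1 was close to its parent in AICAR 1 (-0.04) and AICAR 2 (-0.06) and further from it in CA-p38 (-0.30) and VPA (-0.49). The parents differed too. Among the 10 genes, primed CA-p38 over primed EOS ran from 0.916-fold for POLG to 1.49-fold for PPARGC1B. A test of whether the naive change differed between the parental lines called 0 of the 10 genes. It called 1 of 26497 names (853 at an unadjusted p under 0.05), and of the 10 genes 0 had an unadjusted p under 0.05. The CA-p38 line has 1 library in each state.

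**Figure D3:**
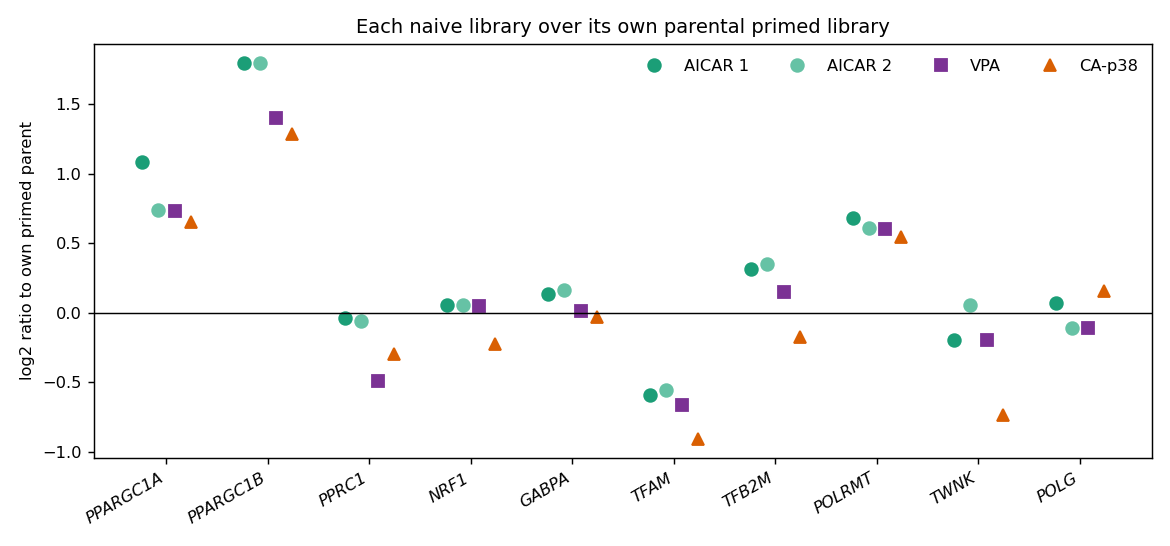
Log2 ratio of TMM-scaled CPM of each naive library to its own primed parent (vertical axis) for the 10 genes, with 1 symbol per naive library. The symbols of PPARGC1A, PPARGC1B and POLRMT all lie above 0, those of PPRC1 and TFAM all below, and TWNK runs from -0.73 to 0.06.

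Among 14 partners that control nuclear mitochondrial genes, 7 were higher, 5 lower and 2 not called, with a median log2 fold change of 0.33. Beside this group and those below, 53.1% of all names tested were called, 26% higher and 27% lower, with a median of 0.11. ESRRA, the estrogen-related receptor through which PGC-1 coactivators act, was at 56.7 to 67.2 CPM in naive and 18.5 and 19.1 in primed libraries. It rose 3.33-fold with no overlap (log2 1.74 ± 0.13 SE, edgeR adjusted p = 1.68e-07). NRIP1, a corepressor of the same receptors, was at 2.82 to 5.48 CPM in naive and at 31.7 and 51.5 in primed libraries, 9.88-fold lower (log2 -3.30 ± 0.26). GABPB1, the subunit that gives GABPA its activation domain, was 1.89-fold lower (log2 -0.92 ± 0.13, adjusted p = 5.99e-05), while GABPA itself did not pass the test. GABPB2, the other subunit of this kind, was 2.26-fold higher (log2 1.18 ± 0.16, adjusted p = 3.72e-05) and is named after its values were seen. The ratio of GABPB2 to GABPB1 counts was 0.742 to 1.02 in naive libraries and 0.187 and 0.209 in primed ones. SIRT1, a deacetylase that acts on PPARGC1A, was at 88.4 ± 8.12 CPM (SD, n = 4) and 74.9 ± 9.84 (SD, n = 2) and was not called (edgeR adjusted p = 0.125), but it was called higher with library totals (0.0308) and limma-voom (0.0286). PERM1, a muscle regulator downstream of the coactivators, was at the counting floor of 3 counts or fewer in both primed libraries and at 0.221 to 0.946 CPM in the naive ones. The mean of the 4 naive libraries was at least 9.06-fold above the higher primed floor of 0.0613 CPM. PERM1, 1 of the 7 higher partners, passed the filter on low counts only through its naive counts (12 to 47, against 0 and 2 in primed libraries).

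The direct partners of POLG and TWNK at the replication fork were lower. POLG2, the accessory subunit of the polymerase, was at 13.7 to 16.7 CPM in naive and 27.7 and 29.5 in primed libraries (log2 -0.88 ± 0.14, edgeR adjusted p = 0.00016). SSBP1, the mitochondrial single-stranded DNA binding protein, fell by 0.50 on the log2 scale (adjusted p = 0.00175), and MGME1, a nuclease of replication, fell by 0.46 (adjusted p = 0.00432). In all 3 genes the naive libraries lay below both primed ones. Over the 17 genes of replication and nucleotide supply, 3 were higher, 7 lower and 7 not called, with a median of -0.25. The extremes among those called were TOP1MT, the mitochondrial topoisomerase, at 368 ± 25.6 CPM (SD, n = 4) in naive and 72.4 ± 1.82 (SD, n = 2) in primed cells (log2 2.35 ± 0.11), and DGUOK, a kinase that supplies purine nucleotides, at 17.9 ± 1.06 and 40.6 ± 1.78 CPM (log2 -1.18 ± 0.13).

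In the group of transcription and nucleoid genes, 4 of 11 were higher, 4 lower and 3 not called, with a median of -0.30. TFB1M, a relative of TFB2M that methylates ribosomal RNA, was at 16.2 ± 2.21 CPM (SD, n = 4) in naive and 21.3 ± 0.64 (SD, n = 2) in primed cells and just missed the threshold (edgeR adjusted p = 0.0524). It was called lower with DESeq2 size factors (0.0302), DESeq2 (0.0188), identifiers tested apart (0.0414) and without VPA (0.0127). TEFM, which helps POLRMT elongate, was not called (log2 0.20 ± 0.17, edgeR adjusted p = 0.364). MTERF2, a member of the termination factor family, was the lowest of those called (log2 -0.95 ± 0.22). ATAD3B was the highest, at 456 to 645 CPM in naive and 52.0 and 76.8 in primed libraries (log2 3.10 ± 0.18). It has a near-identical paralog, ATAD3A, so the split of reads between them is uncertain.

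The remaining groups of nuclear mitochondrial genes differed from each other in direction, beside 26% higher and 27% lower of all names tested (median 0.11). Of 17 genes of mitochondrial RNA processing and stability, 8 were higher and 4 lower (median 0.21), from TRMT10C, a subunit of mitochondrial RNase P (-0.66), to SLIRP, which stabilises mitochondrial mRNAs (0.67). Of 12 import genes, 5 were higher and 0 lower (median 0.25), the highest being TOMM40, the channel of the outer membrane (0.79), and the least raised of the called genes TIMM17B (0.40), which lost its call in 8 of 15 alternatives, DESeq2 and the parental line term among them. Of 10 mitophagy genes, 6 were higher and 2 lower (median 0.67), with PINK1, the kinase that marks damaged mitochondria, at 226 to 241 CPM in naive and 24.8 and 25.2 in primed libraries (log2 3.21 ± 0.11). BNIP3L, a mitophagy receptor, was lower (-1.67 ± 0.21), and its primed libraries were far apart, at 85.8 CPM and 41.9 in the primed EOS and CA-p38 libraries. Of 11 fusion and fission genes, 1 was higher, MFN1 (0.35), and 2 were lower, with MIEF1 the lowest (-0.85). MFN1 and SLIRP each kept their call in 14 alternatives and lost it in 1, which left 1 primed library. With a library left out, MFN1 ran from 0.30 to 0.41 and SLIRP from 0.51 to 0.84.

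**Figure D4:**
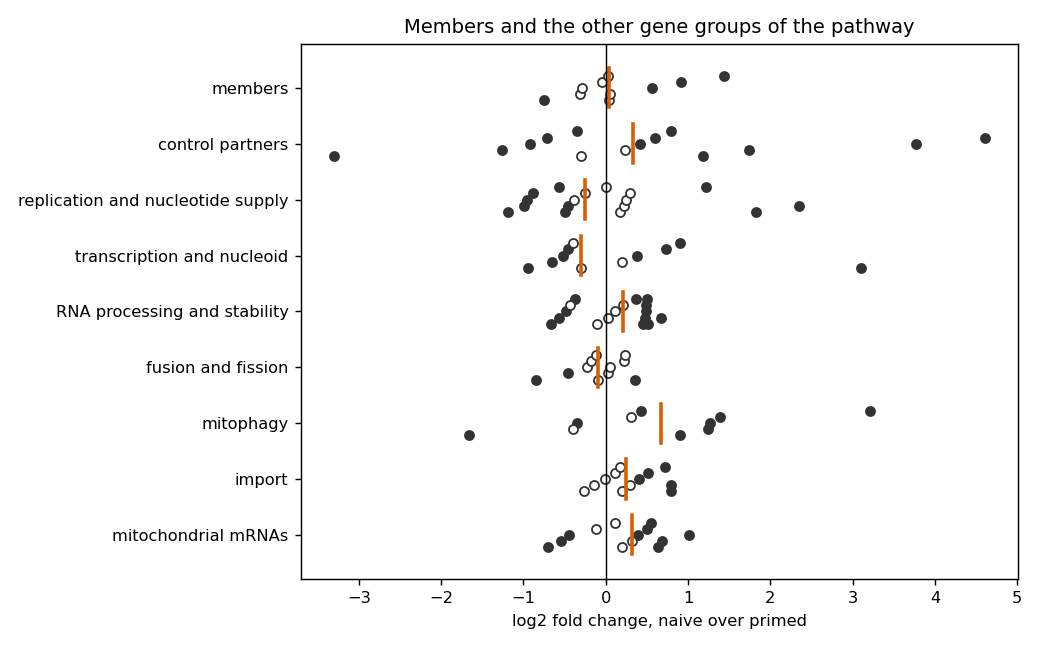
Log2 fold change, naive over primed (horizontal axis), of every gene in the 10-gene set (members) and in 8 other mitochondrial gene groups. Filled circles passed an adjusted p of 0.05, open circles did not, and the orange bar is the group's median, from -0.30 for transcription and nucleoid to 0.67 for mitophagy.

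POLRMT, TFAM and TFB2M transcribe the mitochondrial genome, and its 13 mRNAs are the part of that output looked at here. The summed level of these mRNAs was 35969 CPM in VPA, 32955 in CA-p38, 33979 in AICAR 1 and 29015 in AICAR 2. In the primed EOS and CA-p38 libraries it was 29286 and 19401. The primed libraries differed more from each other than the naive ones did, and AICAR 2 lay just below primed EOS. The mean log2 difference was 0.46 (exact permutation test over samples, two-sided, p = 0.133, where 15 regroupings allow no p below 0.0667). Without primed CA-p38 it was 0.17 and without primed EOS 0.76. Scaled by library totals alone, AICAR 2 (30795) lay above primed EOS (28554), the groups did not overlap, and the difference was 0.56 at the smallest p the test allows (exact permutation p = 0.0667).

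Single mitochondrial mRNAs did not follow the sum. Of the 13, 6 were higher, 3 lower and 4 not called, beside 26% higher and 27% lower of all names tested. MT-CO1, a catalytic subunit of complex IV, was the highest (log2 1.01 ± 0.17), at 8146 to 11523 CPM in naive libraries against 6119 and 3834 in the primed EOS and CA-p38 libraries. MT-ND3, a small subunit of complex I, was the lowest (-0.70 ± 0.22), at 91.3 to 181 CPM in naive libraries and 217 and 181 in primed ones. Among the 13 mRNAs, primed CA-p38 over primed EOS ran from 0.528-fold for MT-ND4L to 1.02-fold for MT-ND2. Calls moved with the libraries used and, for some, with the test. Without primed EOS the calls of MT-ND3, MT-ATP6 and MT-ATP8 were lost, and without primed CA-p38 those of MT-ND4, MT-ND4L and MT-ND6. MT-ND5, MT-CO2 and MT-CYB became called without primed EOS, and MT-CO3 without primed CA-p38. MT-ND4L also lost its call without naive CA-p38 or AICAR 1. MT-ND6 lost it without VPA or naive CA-p38, with DESeq2 and its size factors, with identifiers tested apart and with the parental line term (adjusted p = 0.0511). MT-CO2 was also called higher in 5 other alternatives, and MT-ND5 with limma-voom. In the test of a difference between parental lines, 7 of the 13 mRNAs had an unadjusted p under 0.05 and 0 passed after adjustment. The change of MT-ND4 was 1.03 higher on the log2 scale in the CA-p38 line than in the EOS line (edgeR adjusted p = 0.316), and that of MT-ND4L 1.10 higher (0.452).

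Shares of the mitochondrial mRNA total cannot be moved by the difference in sum between the primed libraries. As such shares, 8 of the 13 mRNAs did not overlap between states, 2 above and 6 below. This count has no like share over all names, since only these 13 mRNAs make up the total. On the CPM scale 7 of the 13 did not overlap, beside 64.9% of all names tested. MT-CO1 took 28.1 to 32.0% in naive and 19.8 to 20.9% in primed libraries. MT-ATP6 took 4.53 to 5.12% and 8.93 to 9.30%, and MT-ATP8, whose reading frame overlaps that of MT-ATP6 on 1 transcript, 2.28 to 2.75% and 4.98 to 5.08%. MT-CO3, next on the map, took 6.45 to 7.66% and 9.70 to 10.8%. Shares sum to a fixed total, so a larger share of MT-CO1 alone lowers the others. Which of the 6 lower shares would stay apart with MT-CO1 left out of the total was not tested. Nuclear copies of mitochondrial genes held 16.1 to 20.1% of MT-ATP6 reads and 4.46 to 7.76% of MT-CO1 reads when added to them, and with all copies added the same 8 mRNAs did not overlap. Intact mRNAs and fragments, and differences in their poly(A) tails, cannot be told apart in poly(A)-selected RNA.

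**Figure D5:**
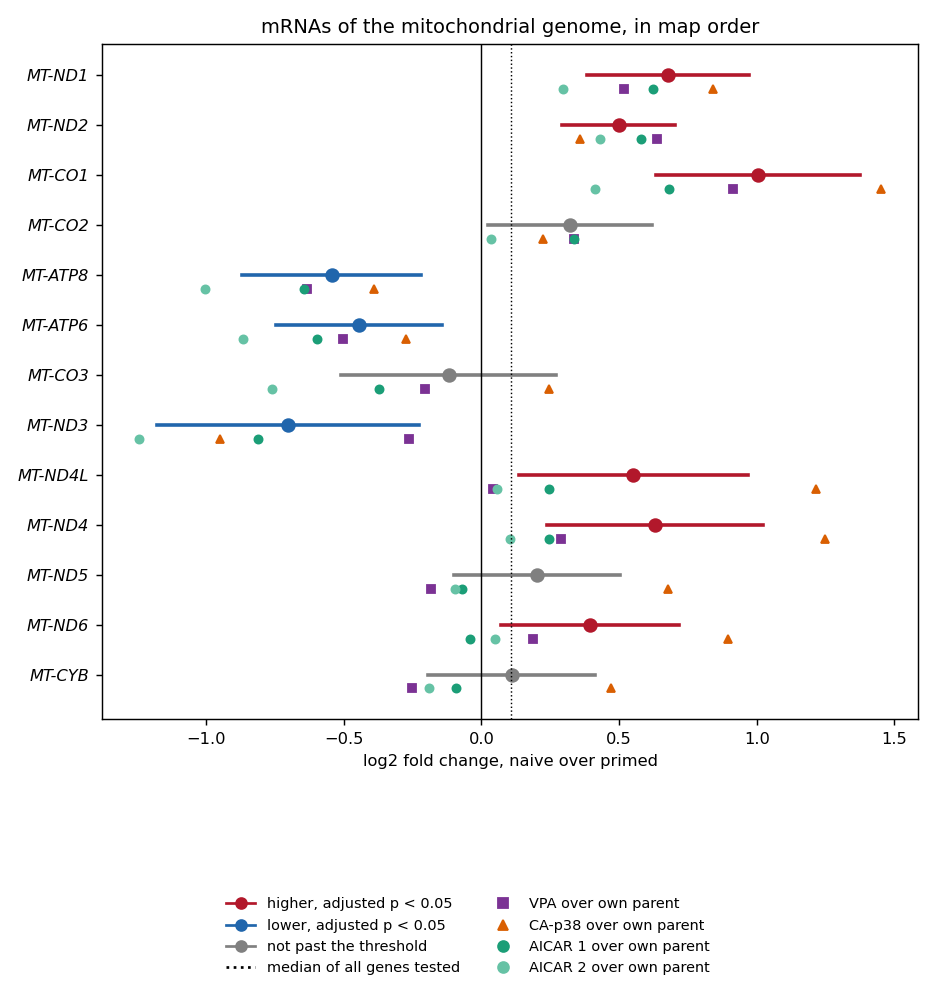
Log2 fold change, naive over primed, with 95% interval (large circles and bars) of the 13 mitochondrial mRNAs in the order of the genome map, with the log2 ratio of each naive library to its own primed parent below each (small symbols, no test). MT-CO1 is the highest at 1.01. The large circles from MT-ATP8 to MT-ND3 lie below 0, but the interval of MT-CO3 (-0.51 to 0.27) spans 0 and its CA-p38 ratio is 0.25. For 10 of the 13 mRNAs the ratio of CA-p38 is the highest of the 4.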

How the data were processed

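RNA of 6 libraries was poly(A)-enriched and sequenced by the authors after a stranded SMART-Seq preparation. The authors trimmed reads with Trim Galore 0.4.4 and cutadapt 1.15, aligned them with Bowtie2 to Ensembl GRCh38 transcripts (cDNA and ncRNA), kept reads by mapping quality and deposited raw counts per gene, with strand use in counting not given in the sources used here. A stretch shared by 2 genes can therefore be counted for either, and fragments of near-identical copies may be split.

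From the deposited counts, identifiers sharing a name were summed (61196 identifiers to 48183 names), 26 spike-in rows with at most 1 count in a library were left out, and 23 columns of other studies were not used. Naive (n = 4) and primed (n = 2) libraries were compared in R 4.3.3 with edgeR 4.0.16: TMM scaling, filterByExpr by state, the quasi-likelihood test (glmQLFit and glmQLFTest) and Benjamini-Hochberg adjustment over all 26497 names, threshold 0.05. Levels are TMM-scaled CPM. Own-parent ratios used a prior count of 0.5. A floor of 3 counts was 0.0552 to 0.0613 CPM, which covers counting error only. The alternatives were DESeq2 1.42.0, limma-voom (limma 3.58.1), other scalings and filters, a parental line term, the AICAR libraries summed, identifiers apart and each library left out. The scripts were tested on simulated data.

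The 10 genes and the gene lists were chosen with earlier results of these data known. Genes named outside the 10 were the highest and lowest called of each list and the direct partners ESRRA, GABPB1, POLG2, TFB1M, TEFM, SSBP1, MGME1, NRIP1 and SIRT1, with the highest and lowest of the mitochondrial mRNAs. The other mitochondrial mRNAs, GABPB2, ATP5PF and FANCI were named after their values were seen. Gene positions and transcript lengths came from GENCODE (GRCh38), promoter windows from RefSeq (GRCh38.p14). The labels gave no replicate numbers that pair libraries, only the parental line.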

Additional observations from a re-analysis of the deposited data

Results flagged for a closer look

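Among the 4 naive libraries, 5 of 45 genes looked at had 1 library far from the other 3, where the gap to the nearest library, as a part of the whole range, exceeded Dixon's criterion for 4 samples. Chance alone flags about 1 group in 20. PPARGC1B in VPA was at 41.1 CPM, with the next library at 54.2 (gap 0.887 of the range). PPRC1 in VPA was at 101 CPM, with the next at 137 (0.924). NRF1 in CA-p38 was at 22.1 CPM, with the next at 24.3 (0.918). SIRT1 in VPA was at 76.2 CPM, with the next at 92.0 (0.954). TEFM in AICAR 1 was at 11.8 CPM, with the next at 10.8 (0.955). VPA was thus the low library for 2 of the 3 PGC-1 coactivators and for SIRT1. The group holds 1 VPA library, so the conversion route and the library cannot be told apart.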

How the results depend on the processing

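PPARGC1B, TFAM and POLRMT kept their direction and their call under every alternative run. Leaving out 1 library at a time gave log2 fold changes of 1.17 to 1.76 for PPARGC1B, -0.89 to -0.61 for TFAM, 0.47 to 0.66 for POLRMT and 0.67 to 1.20 for PPARGC1A, the last losing its call as given above. With no filter on low counts PPARGC1A was 0.89 and not called, PPRC1 was -0.31 and called, and 2 of the 10 genes were called lower in place of 1. With 1 library left out, 2 to 3 genes were called higher and 1 to 2 lower, the second being TWNK without AICAR 2. The 4 genes near 0 changed sign without passing the threshold. NRF1 was 0.048 with library totals and 0.046 with limma-voom, GABPA -0.021 with DESeq2 size factors and -0.021 with DESeq2, TFB2M -0.00057 and -0.00056, and POLG -0.012 and -0.012 under the same pair. Leaving out libraries gave -0.13 to 0.026 for NRF1, -0.060 to 0.12 for GABPA, -0.14 to 0.27 for TFB2M, -0.018 to 0.089 for POLG, -0.43 to -0.14 for PPRC1 and -0.43 to -0.19 for TWNK.

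MT-CO3 was 0.020 with limma-voom and -0.44 to 0.29 with a library left out, MT-ND5 -0.056 to 0.52 and MT-CYB -0.17 to 0.46. With a library left out, 7 to 12 RNA processing genes were called (7 without primed CA-p38) and 3 to 7 import genes (3 without primed EOS). Causes were not tested, beyond the fewer libraries or the changed number of genes tested. A parental line term, which ties each naive library to its parent, changed no call of the 10 genes and ended those of MT-ND6 (0.39, adjusted p = 0.0511) and TIMM17B (0.35, adjusted p = 0.0864). No block on replicate numbers was fitted, since the labels number no replicates across states. Adding the pseudogenes GABPAP, TFAMP1, TFAMP2 and POLRMTP1 to their parent genes, chosen after seeing the data, changed no call. With 2 primed libraries, PPARGC1A rests on 52 and 73 primed counts, the thinnest depth of the set.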
